A study of Sus scrofa with 23 samples.

Results

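The 77 genes described here carry the names of the cell cycle and DNA replication machinery, and were taken from 6765 genes measured on a porcine Affymetrix expression array. They were chosen by symbol alone: single symbols beginning with CCNA, CCNB, CCND, CCNE, CDK, CENP, KIF, BUB or AURK, those beginning with CDC, MCM or PLK and a digit, and in addition UBE2C, MELK, CKS2, NUSAP1, TOP2A, RACGAP1 and PCNA. A gene with several probe sets was represented by the one with the highest mean log2 signal over all samples. The rule used no measured difference between stages, though it was written with earlier results of these data known.

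The arrays held 23 samples from pigs born to German Landrace gilts, or carried by them, with 1 array a sample. At 94 dpc, days post conception in the usual reading, 5 fetal samples were taken. At 1, 28 and 188 dpn, days post natum, 6 samples each were taken. The gestational diet was low in protein for every group, so the data compare ages and hold no test of the diet. The animals of a stage came from 3 gilts and the labels do not name the dam, so samples share dams and the p-values, which treat samples as independent, may be too small. The tissue was labelled liver, whereas the title of the series names muscle. On the arrays, the median of the 8 skeletal muscle markers lay between the 99.3 and 99.95 percentile of all probe sets in every sample. That of the 8 hepatocyte markers lay between the 18.9 and 89.3 percentile. The hepatocyte signals summed to 9766 to 23823 at 94 dpc and 4570 to 12813 at 1 dpn. At 28 dpn the sums were 1790 to 20050, highest in replicate 1 (next 3258). At 188 dpn they were 2361 to 17623, highest in replicate 6 (next 8950).

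Dividing cells pass through a cycle of DNA synthesis and mitosis driven by cyclins and the cyclin-dependent kinases (CDKs) they activate. Licensing proteins such as the MCM helicase prepare origins before synthesis, kinases of the aurora and polo families and the centromere proteins sort the chromosomes, and the anaphase-promoting complex (APC/C) ends mitosis by marking cyclins for destruction. Many of these transcripts are made only in cycling cells, so their level in a tissue is widely read as a sign of proliferation. In muscle, fibres are postmitotic, and the cells that can divide are satellite cells and myoblasts along with endothelial, connective tissue and blood-derived cells.

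By their known function, 42 of the 77 genes act in cell division and are called division genes below: 6 in replication, 4 cyclins, 5 kinases and activators, 6 CDK inhibitors, 13 of the centromere and of mitosis, 6 of mitotic exit and protein turnover, and 2 mitotic kinesins. The other 35 were set apart as related by name or fold, such as the transport kinesins and the proteins that bind the small GTPase CDC42. Some of them also have tasks tied to division, such as PLK2 in centriole duplication, so the split is not strict. This grouping was made with earlier results of these data known and is used for description.

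Signals are linear array units. Differences are of log2(signal + 16), which understates the change of dim genes, and folds are on that same scale. A gene is called higher or lower where limma's test across all probe sets gave a Benjamini-Hochberg adjusted p under 0.05, and every adjusted p below is from that fit. Levels of different genes cannot be compared on such an array. In tissue RNA, fewer dividing cells and less of a transcript per cell cannot be told apart.

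Samples differed in technical measures that go with stage. The median signal of an array was 149 to 169 at 94 dpc, above all arrays of 1 dpn (121 to 140.0), and at 28 dpn it ran from 129 to 149, at 188 dpn from 121 to 130.4. The signal of the spiked bioD control was 6352 to 10020.0 at 94 dpc, below the 16535 to 27491 at 1 dpn, and ran at 28 dpn from 9262 to 20094, at 188 dpn from 14913 to 17347. The ratio of 5′ to 3′ probe sets of GAPDH, which falls when RNA is degraded or cDNA synthesis is incomplete, was 0.0868 to 0.148 in 3 samples at 1 dpn (replicates 2, 4 and 5) and 1.09 to 1.29 in the other 20. The ratio for the spiked Dap control ran from 0.0703 to 0.104 among samples of 28 dpn and from 0.358 to 0.387 among those of 188 dpn, and the actin ratio was 0.817 to 1.21 at 94 dpc and 1 dpn and 1.29 to 1.61 at 28 and 188 dpn. In 1 dpn replicates 2, 4 and 5 the actin ratio was 1.01, 0.817 and 0.985, where samples of 94 dpc gave 0.820 to 1.10. Their Dap ratios were 0.0494, 0.0630 and 0.0525, below 1 dpn replicates 1, 3 and 6 (0.204, 0.354 and 0.180), where 94 dpc ran from 0.0565 to 0.493. The GAPDH ratio alone thus does not settle the state of their RNA. The part of the bioD, Dap and actin measures in the results was not tested.

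Across the stages, the division genes stood highest before birth, were low on the day after birth, were higher again at 28 dpn and low at 188 dpn. For the 36 division genes other than the inhibitors, the median log2(signal + 16) in a sample was 8.13 at the lowest, 8.43 in the middle and 8.63 at the highest among the samples of 94 dpc. At 1 dpn these values were 6.49, 6.65 and 7.33, at 28 dpn 7.22, 7.70 and 7.92, and at 188 dpn 6.54, 6.73 and 6.97. Samples of 94 dpc lay above all others, and those of 28 dpn overlapped only with the highest sample of 1 dpn. The 3 samples of low GAPDH ratio stood at 6.67, 6.63 and 7.10, within the range of the other 3 samples of 1 dpn.

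**Figure D1:**
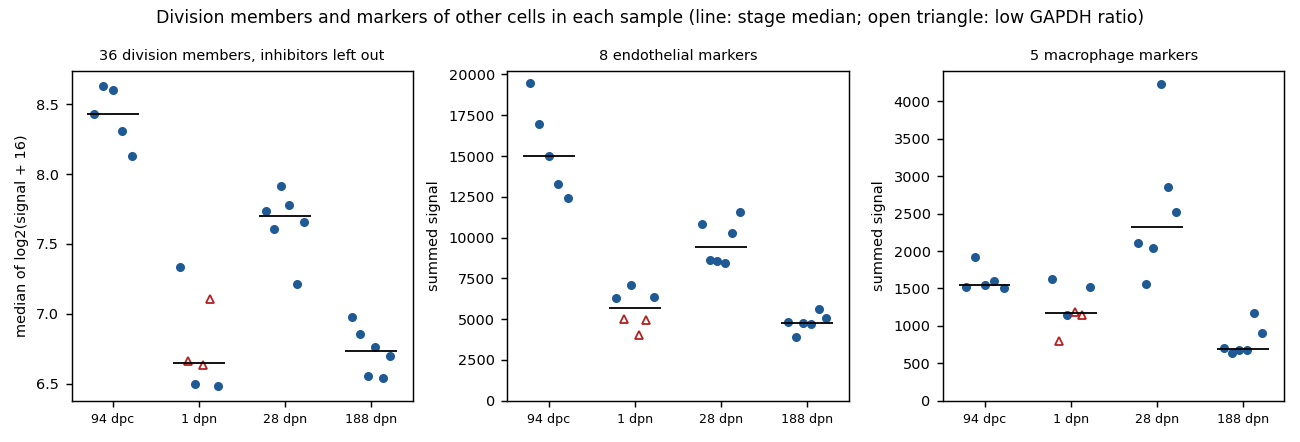
Each point is a sample: the median log2(signal + 16) of 36 division genes (left), the summed linear signal of 8 endothelial markers (middle) and of 5 macrophage markers (right) at each stage, with a line at the stage median and open triangles for the 3 samples of low GAPDH ratio. Division genes are highest at 94 dpc (median 8.43), and both they and the endothelial markers are lower at 1 dpn, higher at 28 dpn and lower again at 188 dpn.

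Of these 36 genes, 27 (75.0%) had their highest stage mean at 94 dpc, against 35.5% of all genes. A fall at 1 dpn followed by a mean at 28 dpn above both neighbouring stages was seen in 22 of the 36 (61.1%), against 20.9% of all genes. These are counts of stage means with no test. Over any of the stages, 31 of the 42 division genes and 20 of the 35 genes related by name differed by limma's F test, where 60.1% of all genes did.

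**Figure D2:**
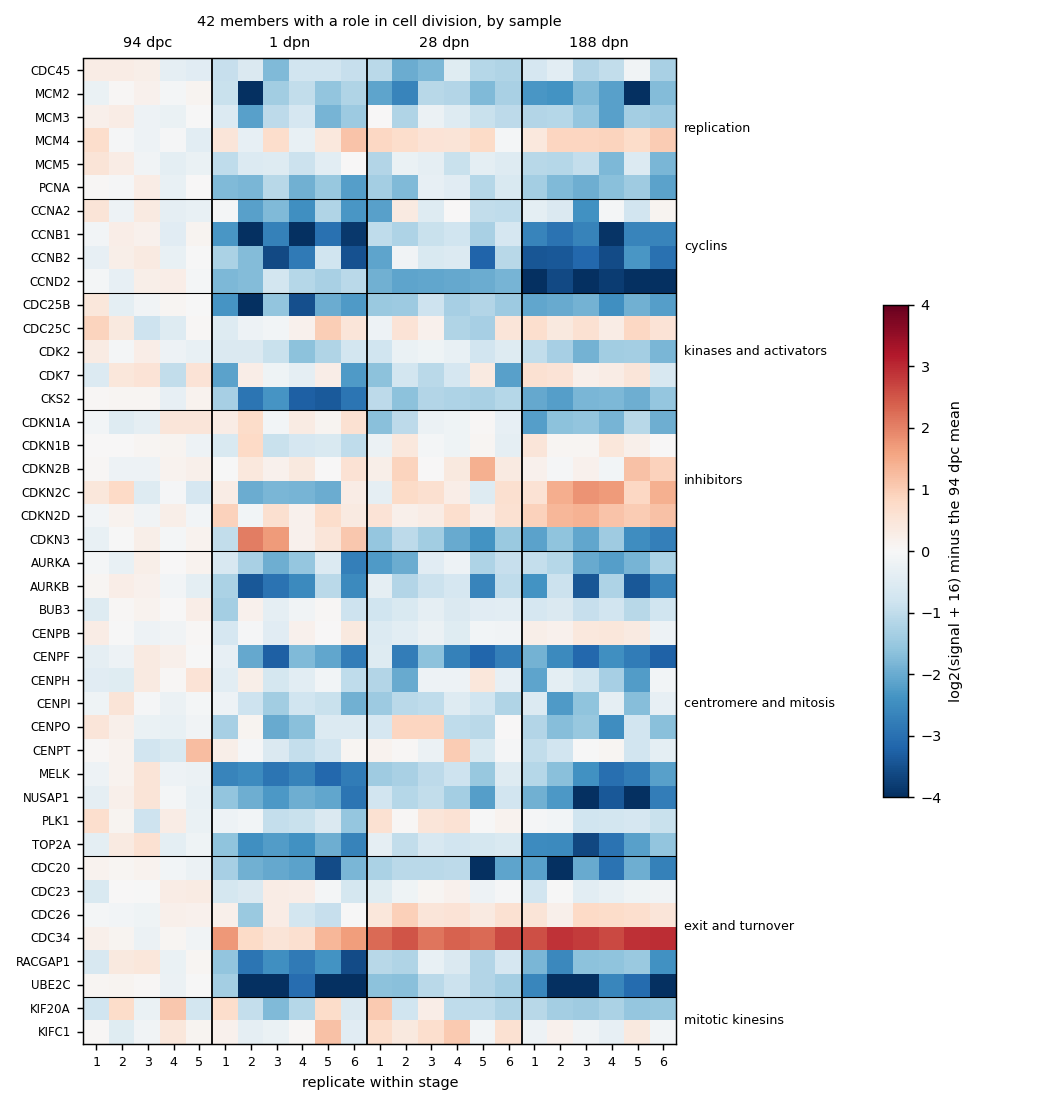
Rows are the 42 division genes grouped by role and columns the 23 samples by stage; colour is log2(signal + 16) minus the gene's mean at 94 dpc, red above and blue below, with the scale ended at 4 in both directions. Blue fills most rows at 1 and 188 dpn and pales at 28 dpn, while 10 of the 42 lie above their 94 dpc mean at 188 dpn, of which CDC34, CDKN2C, CDKN2D and MCM4 were called higher and CDC26, CDC25C, CDKN2B, CDK7, CENPB and CDKN1B were not called.

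The first comparison, 1 dpn against 94 dpc, spans birth. Many division genes fell: 22 of 42 were called lower and 1, CDC34, higher, with a median log2 change of -0.97. Cyclin B1, the APC/C enzyme UBE2C, the kinase MELK and the CDK subunit CKS2 fell by the largest amounts beside CDC25B, a phosphatase that activates CDKs. Over all 77 genes 26 were lower and 4 higher, where 19.4% of all genes were called lower and 13.7% higher and the median of all genes was -0.06. All samples of 1 dpn lay below all samples of 94 dpc for 18 of the 42, against 11.8% of all genes, and above them for 1, against 8.01%. Genes related by name gave 4 lower and 3 higher of 35, with a median of -0.07.

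Scaling moved the balance of the wider set. With each array centred on its median, 19 of the 77 were lower and 8 higher, and the median of all probe sets moved from -0.11 to 0.17. Of the division genes, 18 were then lower and all of them were among the 22. Without the 3 samples of low GAPDH ratio 23 division genes were lower, 18 of them among the 22, and the same held with the ratio as a covariate. The covariate mainly sets these 3 samples apart from the rest, so it is not a separate check.

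The second comparison sets 28 dpn against 1 dpn. Division genes rose in part: 12 of 42 were called higher and 2 lower, both of the latter CDK inhibitors (CDKN1A and CDKN3), with a median of 0.41. Over all 77 genes 13 were higher and 5 lower, where 13.5% of all genes were called higher and 10.6% lower and the median of all genes was 0.03. All samples of 28 dpn lay above all of 1 dpn for 8 of the 42, against 5.96% of all genes, and below them for 2, against 4.42%. Genes related by name gave 1 higher and 3 lower of 35. Without the 3 samples of low GAPDH ratio, 10 division genes were higher, of which 9 were among the 12.

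From 28 to 188 dpn, division genes fell in part. Of the 42, 14 were called lower, 2 higher (CDKN2D and CENPB) and 26 neither, with a median of -0.61. Over the 77 genes 18 were lower and 3 higher, against 12.5% and 5.78% of all genes and a median of all genes of -0.06. All samples of 188 dpn lay below all of 28 dpn for 8 of the 42, against 9.56% of all genes, and above them for 1, against 6.27%.

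Between the ends of the series, 188 dpn against 94 dpc, 27 of 42 division genes were lower and 4 higher, with a median of -1.42. Over the 77 genes 38 were lower and 10 higher, where 27.4% of all genes were lower and 19.5% higher and the median of all genes was -0.08. For 25 of the 42, all samples of 188 dpn lay below all of 94 dpc, against 23.1% of all genes, and for 2 they lay above, against 16.9%. Centring the arrays gave 29 lower and 16 higher among the 77, while 23 division genes stayed lower, all of them among the 27. The 4 comparisons share stages and so share samples, and their values are given side by side without a test of one against another.

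**Figure D3:**
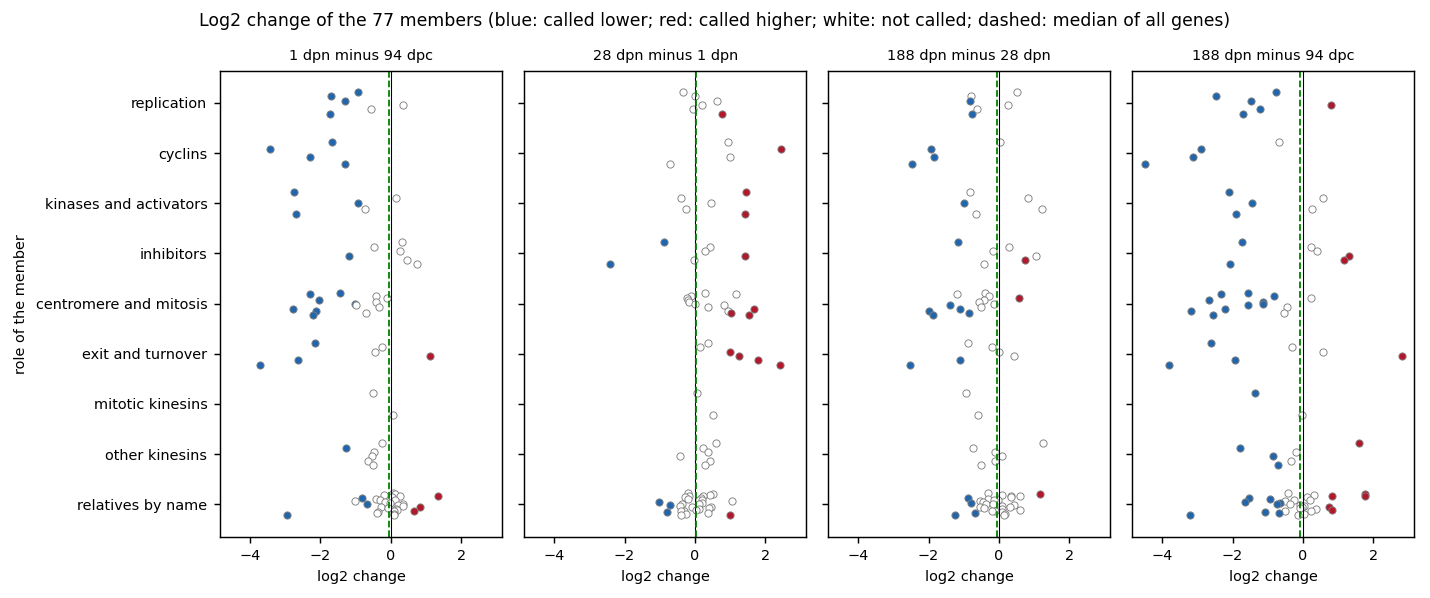
Each point is the log2 change of 1 of the 77 genes in 1 comparison, in rows by role; blue is called lower, red called higher, white not called, and the dashed line is the median of all genes. Cyclins and genes of the centromere and mitosis lie left of the line at 1 dpn and at 188 dpn against 94 dpc, save CENPB in the latter (0.24), whereas the inhibitors and the 29 relatives scatter around it.

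The counts by role below are of few genes and stand beside these shares of all genes. In the 4 comparisons in order, 19.4%, 10.6%, 12.5% and 27.4% were called lower and 13.7%, 13.5%, 5.78% and 19.5% higher. Replication is the first group by function. Of its 6 genes, 4 were lower at 1 dpn than at 94 dpc, 1 was higher at 28 than at 1 dpn, 2 were lower at 188 than at 28 dpn, and 5 were lower and 1 higher at 188 dpn than at 94 dpc. PCNA, the sliding clamp that holds DNA polymerases on the template, had signals of 1085, 1293, 1341, 1391 and 1646 at 94 dpc. It ranged from 279 to 617 at 1 dpn (median 375), from 383 to 1053 at 28 dpn (median 740.4) and from 294 to 514 at 188 dpn (median 395). Every sample of 94 dpc was thus higher than any later one, and samples of 28 dpn spread over the whole gap between those of 1 dpn and of 94 dpc. The log2 change was -1.72 ± 0.24 (SE) at birth (adjusted p = 1.62e-05) and -1.72 ± 0.24 over the whole span (5.19e-06).

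The rise of PCNA to 28 dpn, 0.78 ± 0.23 (adjusted p = 0.023), and its fall from there, -0.77 ± 0.23 (0.027), were of nearly the same size. Neither call was stable. The rise had an adjusted p of 0.109 without the samples of low GAPDH ratio and lost its call without any 1 of 1 dpn replicate 6 or 28 dpn replicates 3, 4 and 6 (0.055 to 0.0636). The rise also lost its call with arrays centred, when only these stages were fitted and with the ratio as a covariate. The fall lost its call without any 1 of 5 samples, 28 dpn replicates 3, 4 and 6 and 188 dpn replicates 3 and 6 (0.0601 to 0.0779). It also lost it under quantile normalization, with arrays centred and when only these stages were fitted (0.0522 to 0.0706).

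MCM2 to MCM5 are subunits of the ring that unwinds DNA. MCM2 gave 489, 559, 601, 641 and 659.8 at 94 dpc, 18.7 to 312 at 1 dpn (median 229), 80.0 to 264 at 28 dpn (median 196) and 10.4 to 164 at 188 dpn (median 110.2). Its samples of 94 dpc stood apart from all the rest, which overlapped one another. The log2 change at birth was -1.70 ± 0.50 (adjusted p = 0.013) and that over the whole span -2.49 ± 0.50 (3.03e-04). Without the samples of low GAPDH ratio the change at birth was -1.16 (0.0786). The call at birth was also lost under quantile normalization (0.0554) and with the mean of the gene's probe sets (-0.86, 0.0506). With that mean the whole span gave -1.05 (0.0117), and neither of the 2 dimmer probe sets of MCM2 was called in any of the 4 comparisons.

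MCM3 ran from 214 to 325 at 94 dpc (median 256), 45.9 to 173 at 1 dpn (median 101), 104 to 265 at 28 dpn (median 154) and 45.6 to 110.5 at 188 dpn (median 88.1). It fell by 1.29 on the log2 scale at birth and by 1.47 over the span, with no overlap in either. A fall of 0.82 after 28 dpn (adjusted p = 0.044) lost its call without any 1 of 8 of the 12 samples, 28 dpn replicates 1, 3, 4 and 5 and 188 dpn replicates 3 to 6 (0.0514 to 0.114), and under either scaling. MCM5 fell over the whole span by 1.22 (4.05e-04), and a second probe set, brighter by linear mean, by 2.53 (8.82e-07). CDC45, a helicase cofactor at the fork, fell by 0.95 at birth (0.0129). It was lower by 0.77 at 188 dpn than before birth (0.030), where the samples of both stages overlapped. A dimmer probe set of CDC45 was lower at birth (-1.60, 0.00468) and was not called over the span (-0.80, 0.130).

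MCM4 went the other way on a dim probe set, with 15.3, 19.8, 24.1, 24.4 and 51.8 at 94 dpc and 39.7 to 68.6 at 188 dpn (median 59.1). The rise was 0.80 ± 0.25 (adjusted p = 0.0145), was not called with the mean of the gene's 2 probe sets (0.23, 0.578) and had an adjusted p of 0.0616 with a trended prior. Both stages lay below the median signal of the arrays.

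All 4 cyclins measured were lower at 1 dpn than at 94 dpc, 1 was higher at 28 than at 1 dpn, 3 were lower at 188 than at 28 dpn, and 3 were lower at 188 dpn than at 94 dpc. CCNB1, the cyclin that drives entry into mitosis, had signals of 321, 412, 476, 495 and 533 at 94 dpc. At 1 dpn it ranged from 6.37 to 74.1 (median 28.9), at 28 dpn from 171 to 272 (median 222), and at 188 dpn from 14.3 to 57.3 (median 56.4). No sample of a stage overlapped with those of the next, at birth, in the rise or in the later fall. The changes were -3.43 ± 0.32 (10.8-fold, adjusted p = 9.0e-08), 2.45 ± 0.31 (5.46-fold, 8.86e-06) and -1.93 ± 0.31 (3.82-fold, 1.49e-04) for the consecutive stages. Samples of 1 dpn are near the pseudocount, so the size of the first change ran from -4.24 with a pseudocount of 1 to -2.43 with 64.

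CCNB2, the second mitotic cyclin, gave 159, 164, 203, 244 and 267 at 94 dpc and 2.52 to 27.5 at 188 dpn (median 6.91), with medians of 32.1 and 106 at 1 and 28 dpn. It fell by 2.29 ± 0.50 at birth (adjusted p = 0.00148), by 1.85 ± 0.48 after 28 dpn (0.0108), and over the span the change was -3.14 ± 0.50 (2.34e-05). Its value for 28 against 1 dpn was 1.00 ± 0.48 (0.169), and it passed without 28 dpn replicate 5 (1.38, 0.0357). The size over the span depended on the pseudocount, from -4.56 with 1 to -1.86 with 64.

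CCNA2, the cyclin of S and G2 phase, was dim throughout, with 61.7 to 126 at 94 dpc (median 70.5) and 2.18 to 78.5 at 1 dpn (median 9.87). It fell at birth by 1.67 ± 0.46 (adjusted p = 0.00963), with an adjusted p of 0.0852 without the samples of low GAPDH ratio. Its values for 28 against 1 dpn (0.94, 0.158) and 188 dpn against 94 dpc (-0.68, 0.274) did not pass, the first of them passing without 1 dpn replicate 1 (1.26, 0.0368).

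CCND2, a D-type cyclin that carries growth signals into G1 phase, followed another course. Its signals were 2363, 2832, 2837, 3486 and 3589.5 at 94 dpc, 848 to 1785 at 1 dpn (median 1288), 679 to 812 at 28 dpn (median 719) and 6.87 to 228 at 188 dpn (median 164). Each stage lay wholly below the one before, with no rise at 28 dpn. The change over the span was -4.49 ± 0.40 (22.4-fold, adjusted p = 5.39e-09), of which -2.48 ± 0.38 fell after 28 dpn (9.99e-05). The change at birth was -1.29 ± 0.40 (0.0187), with an adjusted p of 0.0941 without the samples of low GAPDH ratio, 0.0702 with arrays centred and 0.102 with a pseudocount of 1. For 28 against 1 dpn the value was -0.71 (0.224), and it passed when only these 2 stages were fitted (0.0456).

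**Figure D4:**
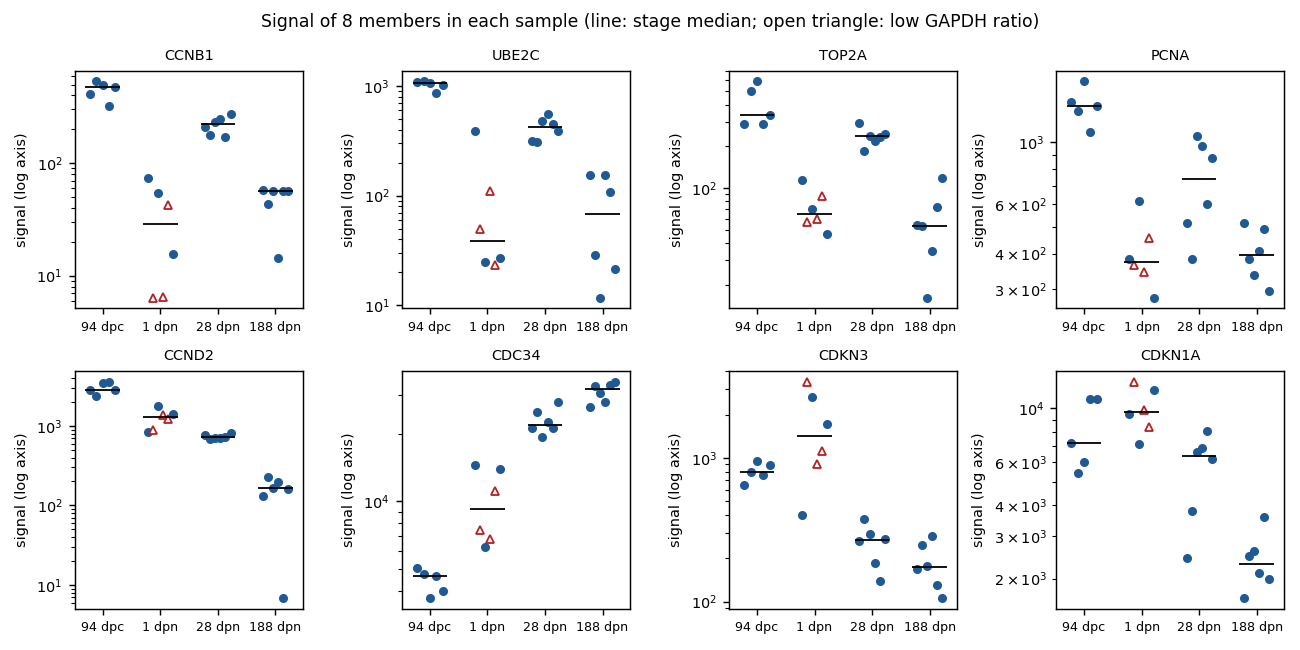
Signals of 8 of the genes in each sample on log axes, by stage, with a line at the stage median and open triangles for the 3 samples of low GAPDH ratio. CCNB1, UBE2C, TOP2A and PCNA dip at 1 dpn and stand higher at 28 dpn, CCND2 steps down through all stages to a median of 164, CDC34 steps up to a median of 31651, and CDKN3 and CDKN1A have their highest medians at 1 dpn (1416 and 9669.7).

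Among the 5 kinases and activators, 3 were lower at 1 dpn than at 94 dpc, 2 were higher at 28 than at 1 dpn, 1 was lower at 188 than at 28 dpn and 3 were lower over the span. CKS2, a small subunit that CDKs need to bind substrates, gave 1229, 1586, 1612, 1614 and 1716 at 94 dpc, 135 to 598 at 1 dpn (median 191), 479 to 741 at 28 dpn (median 656) and 323 to 522 at 188 dpn (median 404). One sample of 1 dpn, replicate 1, reached into the range of 28 dpn, and the other 5 did not. CKS2 fell by 2.69 ± 0.26 at birth (adjusted p = 1.25e-07) and rose by 1.44 ± 0.25 to 28 dpn (2.86e-04). Its value after 28 dpn was -0.64 (0.094), and it passed in 5 other settings, such as array weights (0.0211).

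CDC25B, the phosphatase that removes inhibitory phosphates from CDKs, gave 937, 1105, 1197, 1302 and 1685 at 94 dpc. Later ranges were 28.9 to 397 at 1 dpn (median 233), 425 to 677 at 28 dpn (median 459) and 209 to 315 at 188 dpn (median 282). The first 3 stages did not overlap one with the next, and all samples of 188 dpn lay below those of 28 dpn. It fell by 2.75 ± 0.37 at birth (adjusted p = 9.41e-06), and without the samples of low GAPDH ratio by 2.07. Its rise to 28 dpn, 1.46 ± 0.36 (0.00596), was 0.78 (0.0202) without those samples and 0.67 (0.251) with the ratio as a covariate. The value after 28 dpn was -0.81 (0.146), and it passed when only these stages were fitted (0.0032).

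CDK2, the kinase that pairs with cyclins E and A, was 398 to 615 at 94 dpc (median 464), 146 to 325 at 1 dpn (median 272), 274 to 435 at 28 dpn (median 365) and 122 to 241 at 188 dpn (median 179.9). It fell by 0.94 ± 0.22 at birth (adjusted p = 0.00219) and by 0.99 ± 0.21 after 28 dpn (0.00202), with no overlap in either. Both calls rest on its brightest probe set: with the mean of its 3 the values were -0.45 (0.14) and -0.34 (0.323). A dimmer probe set of CDK2 was lower at 28 than at 1 dpn (-1.19, 0.0183). CDK7, the CDK-activating kinase that also serves transcription, and CDC25C were called in none of the 4 comparisons.

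The 6 CDK inhibitors did not share 1 direction. None had its highest mean at 94 dpc, and in the 4 comparisons in order 1, 2, 1 and 2 were lower and 0, 1, 1 and 2 higher. CDKN3, a phosphatase that acts on CDKs and is itself made in cycling cells, gave 647, 755, 794, 892 and 951 at 94 dpc and 401 to 3382 at 1 dpn (median 1416). Its ranges were 139.8 to 375 at 28 dpn (median 269) and 106 to 286 at 188 dpn (median 173). Samples of 1 dpn scattered on both sides of those of 94 dpc, and every later sample lay below both stages. CDKN3 fell from 1 to 28 dpn by 2.40 ± 0.37 (5.29-fold, adjusted p = 8.67e-05), where CCNB1 rose by 2.45. Its value at birth was 0.76 ± 0.39 (0.165), and without 1 dpn replicate 1 it was 1.10 (0.015).

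CDKN1A, or p21, which arrests the cycle in response to damage and during muscle differentiation, had signals of 5425, 6024, 7189, 10875 and 10944 at 94 dpc. It ranged from 7133 to 12862 at 1 dpn (median 9669.7), 2431 to 8060.2 at 28 dpn (median 6398) and 1665 to 3593 at 188 dpn (median 2293). Neighbouring stages overlapped, and the samples of 188 dpn lay below all of 94 dpc and of 1 dpn. It fell by 1.73 ± 0.28 over the span (adjusted p = 3.34e-05) and by 1.16 ± 0.27 after 28 dpn (0.00492). A fall of 0.89 ± 0.27 from 1 to 28 dpn (0.0251) had an adjusted p of 0.128 without the samples of low GAPDH ratio and lost its call without any 1 of 1 dpn replicates 2 and 6 and 28 dpn replicates 1 and 2 (0.0503 to 0.0699). At birth the value was 0.33 (0.440), and -0.06 (0.908) under quantile normalization.

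CDKN2D, or p19, an inhibitor of CDK4 and CDK6, had signals of 376, 386, 390.1, 458 and 489 at 94 dpc and of 807 to 1127 at 188 dpn (median 954). Its samples of 188 dpn stood above every sample of 94 dpc and of 28 dpn, where the range was 479 to 679 (median 569). It rose by 0.73 ± 0.17 after 28 dpn (adjusted p = 0.00506) and by 1.17 ± 0.18 over the span (1.47e-05).

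CDKN2C, or p18, of the same family, was 36.7 to 131 at 94 dpc (median 64.9), 5.17 to 88.3 at 1 dpn (median 7.55), 43.4 to 127 at 28 dpn (median 101) and 109.6 to 277 at 188 dpn (median 214). It rose over the span by 1.30 ± 0.43 (adjusted p = 0.0202), which lost its call without 94 dpc replicate 3 or 5 (0.0559 and 0.0626). A fall at birth (-1.18, 0.0469) was -0.41 (0.581), and a rise to 28 dpn (1.42, 0.0185) was 0.65 (0.393), without the samples of low GAPDH ratio. The fall also lost its call without any 1 of 7 of the 11 samples, 94 dpc replicates 1, 2 and 4 and 1 dpn replicates 2 to 5 (0.0723 to 0.133).

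CDKN1B, or p27, which holds cells out of the cycle, ranged at 94 dpc from 1091 to 1375, at 188 dpn from 1293 to 1790.1, and was called in no comparison. One sample, 1 dpn replicate 2, gave 2239 where the other 5 of its stage were 627 to 835, and without it the values were -0.75 at birth (adjusted p = 0.00187) and 0.69 from 1 to 28 dpn (0.00467). A dimmer probe set of CDKN1B was higher at 28 than at 1 dpn (1.49, 0.0131) and at 188 dpn than at 94 dpc (1.54, 0.0062). CDKN2B was dim, with no signal above 45.6, and was not called.

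In the group of 13 centromere and mitosis genes, 7 were lower at 1 dpn than at 94 dpc and 0 higher, 3 were higher at 28 than at 1 dpn, 5 were lower and 1 higher at 188 than at 28 dpn, and 10 were lower over the span. TOP2A, the topoisomerase that untangles sister chromatids, gave 289.9, 291, 337, 502 and 589.6 at 94 dpc, 46.9 to 115 at 1 dpn (median 64.8), 185 to 295 at 28 dpn (median 236) and 16.1 to 118 at 188 dpn (median 53.6). The stages of low signal, 1 and 188 dpn, overlapped with each other and did not touch those of high signal. Samples of 94 dpc and 28 dpn met at their edges. The consecutive changes were -2.22 ± 0.28 (adjusted p = 4.35e-06), 1.54 ± 0.27 (3.31e-04) and -1.89 ± 0.27 (4.85e-05).

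MELK, a kinase whose transcript peaks in mitosis, had signals of 143, 148, 149, 191 and 257 at 94 dpc, 5.43 to 16.9 at 1 dpn (median 12.3), 50.5 to 116 at 28 dpn (median 68.1) and 7.48 to 69.9 at 188 dpn (median 22.7). Even the highest sample of 1 dpn was far under the lowest of 94 dpc and of 28 dpn, and 188 dpn overlapped with 28 dpn. MELK fell by 2.79 ± 0.27 at birth (6.91-fold, adjusted p = 1.49e-07), rose by 1.69 ± 0.26 (9.19e-05) and fell by 1.10 ± 0.26 (0.00561). The first change ran from -3.86 with a pseudocount of 1 to -1.66 with 64.

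NUSAP1, a protein that bundles spindle microtubules, gave 437, 452, 533, 648 and 813 at 94 dpc, 60.5 to 177 at 1 dpn (median 127), 111 to 327 at 28 dpn (median 262) and 10.4 to 137 at 188 dpn (median 53.9). All later samples lay below those of 94 dpc. It fell by 2.13 ± 0.39 at birth (adjusted p = 2.38e-04), by 2.00 ± 0.37 after 28 dpn (6.37e-04), and over the span the change was -3.20 ± 0.39 (5.22e-07). The value from 1 to 28 dpn was 0.94 (0.0854) and passed without 28 dpn replicate 5 (0.0413). A second, dimmer probe set fell by 1.22 at birth and by 1.15 over the span, and its value after 28 dpn was -0.32 (0.498).

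AURKB, the kinase of the chromosomal passenger complex, was 256 to 413 at 94 dpc (median 364) and 18.5 to 154 at 1 dpn (median 45.4), and fell by 2.29 ± 0.48 (adjusted p = 9.17e-04). Its value from 1 to 28 dpn was 1.17 (0.0804), passing without 1 dpn replicate 1 or 5 or 28 dpn replicate 5 (0.0249 to 0.0406). AURKA, the kinase of the spindle poles, fell by 1.45 ± 0.38 at birth (0.0064) from 146 to 219 at 94 dpc to 14.2 to 121 at 1 dpn. A dimmer probe set of AURKA was not called at birth (-1.18, 0.051) and was lower over the span (-1.55, 0.00681). Both kinases were lower at 188 dpn than at 94 dpc, by 2.32 and 1.57.

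CENPF, a kinetochore protein of G2 and M phase, had signals of 211, 235, 271, 314 and 359 at 94 dpc and medians of 53.1, 28.3 and 29.6 at 1, 28 and 188 dpn. It fell by 2.04 ± 0.44 at birth (adjusted p = 0.0013), and unlike CCNB1 its value from 1 to 28 dpn was -0.21 (0.80). CENPI and CENPO of the constitutive centromere network were lower over the span by 1.13 and 1.55, CENPH by 1.15 with overlapping samples, and the checkpoint protein BUB3 by 0.81. CENPT was dim and not called. CENPB, which binds a repeat of centromeric DNA, was the 1 gene of the group to rise, by 0.56 ± 0.18 after 28 dpn (0.041), with its stages overlapping.

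PLK1, the polo-like kinase of mitosis, had 51.4, 84.9, 114, 132 and 177 at 94 dpc, 25.4 to 95.8 at 1 dpn (median 56.3), 103 to 166 at 28 dpn (median 135) and 48.3 to 100.1 at 188 dpn (median 57.9). Its highest median was at 28 dpn, where all samples lay above those of 1 and of 188 dpn. It rose by 1.02 ± 0.26 from 1 to 28 dpn (adjusted p = 0.00799). The following fall, 0.85 ± 0.26 (0.0289), lost its call without any 1 of 7 of the 12 samples, 28 dpn replicates 1, 3 and 4 and 188 dpn replicates 3 to 6 (0.0528 to 0.0677). At birth its value was -0.72 (0.0558), and it passed without 1 dpn replicate 1 or 2 or 94 dpc replicate 3 (0.0154 to 0.0345).

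Of the 6 genes of mitotic exit and turnover, 3 were lower and 1 higher at 1 dpn than at 94 dpc, 4 were higher at 28 than at 1 dpn, 2 were lower at 188 than at 28 dpn, and 3 were lower and 1 higher over the span. UBE2C, the enzyme that hands ubiquitin to the targets of the APC/C, had signals of 862, 1021, 1068, 1085 and 1104 at 94 dpc, 23.1 to 392 at 1 dpn (median 38.5), 311 to 555 at 28 dpn (median 419) and 11.7 to 154 at 188 dpn (median 68.6). A single sample of 1 dpn, replicate 1 at 392, reached the range of 28 dpn. The changes were -3.73 ± 0.52 (13.2-fold, adjusted p = 1.39e-05), 2.43 ± 0.50 (0.00145) and -2.52 ± 0.50 (0.00123). A second UBE2C probe set, with a mean signal of 60.3, was called in none of the 4 comparisons (0.26 at birth, 0.720), and with the mean of both the change at birth was -1.74 (2.33e-04).

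RACGAP1, a subunit of the centralspindlin complex that places the cleavage furrow, gave 485, 629, 800.2, 995 and 1039 at 94 dpc. Its ranges were 48.4 to 246 at 1 dpn (median 109), 323 to 613 at 28 dpn (median 411) and 114 to 262 at 188 dpn (median 217). Samples of 1 and 188 dpn lay under all samples of 94 dpc and 28 dpn. It fell by 2.63 ± 0.30 (adjusted p = 1.12e-06), rose by 1.79 ± 0.29 (1.27e-04) and fell by 1.09 ± 0.29 (0.0114).

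CDC20, the activator of the APC/C in mitosis, was 303, 332, 381, 399 and 403 at 94 dpc and 15.5 to 136 at 1 dpn (median 79.4), and fell by 2.14 ± 0.47 (adjusted p = 0.00134). Its samples of 28 dpn ran from 7.95 to 166 (median 152) and overlapped with both neighbours, with a value of -0.87 (0.222) after 28 dpn and of -1.32 (0.0168) without 28 dpn replicate 5. The APC/C subunit CDC26 differed from it: it rose by 1.00 ± 0.24 from 1 to 28 dpn (0.00508), and at 28 and 188 dpn had medians of 1546 and 1637. CDC23, of the same complex, was not called.

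CDC34, the enzyme that hands ubiquitin to targets of the SCF ligases, had 3705, 3979, 4643, 4756 and 5016 at 94 dpc, 6274 to 14557 at 1 dpn (median 9272), 19410.0 to 27723 at 28 dpn (median 21972) and 26521 to 34212 at 188 dpn (median 31651). Each of the first 3 stages lay wholly under the next, and the last overlapped with it. It rose by 1.10 ± 0.21 at birth (adjusted p = 3.34e-04), by 1.26 ± 0.20 to 28 dpn (1.03e-04) and by 2.80 ± 0.21 over the span (6.96-fold, 3.25e-10). The value after 28 dpn was 0.43 (0.166), and it passed when only these stages were fitted (0.0416). Over the span the skeletal muscle markers were higher too, 8 of 8 called, with a summed signal of 209370.0 to 237890.0 at 94 dpc and 491640.0 to 660010.0 at 188 dpn. Their part in the rise of CDC34 was not tested.

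Kinesins are motors that walk on microtubules. The mitotic kinesin KIF20A, needed for cytokinesis, was dim and lower at 188 dpn (6.64 to 14.2, median 8.85) than at 94 dpc (21.4 to 122, median 39), by 1.37 ± 0.46 (adjusted p = 0.0205). The call was lost without 94 dpc replicate 2 or 4 (0.0633 and 0.0756) and with arrays centred (0.0546). KIFC1, a spindle kinesin, was not called.

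Among the 6 kinesins of other tasks, 3 were lower and 1 higher over the span (50% and 16.7%, against 27.4% and 19.5% of all genes). At birth 1 was lower (16.7%, against 19.4%). KIF2A, which takes microtubules apart at their ends, was lower by 1.78 ± 0.46 over the span (adjusted p = 0.00314). Its fall at birth, 1.28 (0.0409), was lost without any 1 of 6 of the 11 samples, 94 dpc replicates 1, 4 and 5 and 1 dpn replicates 3, 5 and 6 (0.0523 to 0.107). KIF5B, the conventional cargo motor, was lower by 0.85 (0.0263), a call lost without 94 dpc replicate 4 or 5 (0.0673 and 0.0507) and under either scaling (0.157 and 0.17), and the kinesin-2 adaptor KIFAP3 was lower by 0.70 (0.00406). KIF21A rose by 1.58 ± 0.49 (0.0122) from 4.65 to 89 at 94 dpc to 58.7 to 158 at 188 dpn.

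Of the 29 relatives by name, 3 were lower and 3 higher at birth (10.3% each, against 19.4% and 13.7% of all genes), 3 and 1 from 1 to 28 dpn, and 4 and 1 after 28 dpn. Over the span 8 were lower and 5 higher, or 27.6% and 17.2%, against 27.4% and 19.5% of all genes, so that their counts lay near or under those of all genes. PLK2, a polo-like kinase of centriole duplication that is also induced by stress and serum, moved like the mitotic genes at birth. Its signals were 687, 1043, 1073, 1106 and 1381 at 94 dpc, 23.0 to 197 at 1 dpn (median 166), 223 to 322 at 28 dpn (median 253) and 56.5 to 168 at 188 dpn (median 109). All samples of 94 dpc lay above all later ones. It fell by 2.96 ± 0.34 at birth (7.76-fold, adjusted p = 1.35e-06), and over the span the change was -3.20 ± 0.34 (8.71e-08). A rise of 0.99 from 1 to 28 dpn (0.0382) was 0.41 (0.357) without the samples of low GAPDH ratio and was lost without any 1 of 8 of the 12 samples, 1 dpn replicates 2 and 5 and all 6 of 28 dpn (0.0514 to 0.0787).

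CCNDBP1, a helix-loop-helix protein that binds D-type cyclins, rose as CCND2 fell, with 702, 859.5, 883, 962 and 1055 at 94 dpc and 2549 to 3347 at 188 dpn (median 3113). It rose by 1.15 ± 0.19 after 28 dpn (adjusted p = 1.75e-04) and by 1.76 ± 0.20 over the span (1.48e-07), with no overlap in either. CDC37L1, a relative of the kinase chaperone CDC37, was higher by 1.34 ± 0.34 at birth (0.0043) and by 1.77 ± 0.34 over the span (1.69e-04). Without the samples of low GAPDH ratio its value at birth was 0.67 (0.0552). CDC37 itself was higher over the span by 0.82, and CDK5, a kinase known from neurons, by 0.81.

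CDC42EP5, an effector of the GTPase CDC42 that shapes the actin cytoskeleton, ranged at 94 dpc from 745 to 953 and at 188 dpn from 179 to 310.0. It fell by 1.03 ± 0.20 from 1 to 28 dpn (adjusted p = 7.83e-04) and by 1.65 ± 0.21 over the span (9.6e-07). The CDC42-binding kinase CDC42BPA fell over the span by 1.53 (2.48e-05), and at birth by 0.83 (0.0151), a call lost with arrays centred (0.115) and when only these stages were fitted (0.0633). CDK9, which releases paused RNA polymerase, was lower at 188 dpn than at 94 dpc by 1.07 (0.0016). Its fall from 1 to 28 dpn (-0.80, 0.0232) had an adjusted p of 0.167 without the samples of low GAPDH ratio and was lost without 1 dpn replicate 2 or 28 dpn replicate 2 (0.062 and 0.0645). CDC42 itself was called in none of the 4 comparisons, while another of its probe sets was lower over the span (-0.51, adjusted p = 0.0209).

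A list of 143 other genes of replication and mitosis, compiled with earlier results known, had 68 on the array. In the 4 comparisons in order, 33, 5, 13 and 35 of the 68 were lower and 2, 13, 0 and 1 higher, with medians of -0.73, 0.31, -0.21 and -0.94. The lower shares were 48.5%, 7.35%, 19.1% and 51.5%, against 19.4%, 10.6%, 12.5% and 27.4% of all genes. The higher shares were 2.94%, 19.1%, 0% and 1.47%, against 13.7%, 13.5%, 5.78% and 19.5%. MYBL2, a transcription factor that activates mitotic genes, fell by 2.67 at birth (adjusted p = 3.92e-05), with -3.51 over the span. LMNB1, a lamin of the nuclear envelope, moved by -2.65, 1.34 and -1.47 between consecutive stages, all called. STMN1, which destabilises microtubules, moved likewise by -2.10, 0.96 and -1.16. PTTG1, or securin, fell by 2.43 at birth and rose by 1.04 to 28 dpn (0.0473).

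Others of the list took another course. DNMT1, the maintenance DNA methyltransferase, had a value of -0.16 at birth (adjusted p = 0.727), then changed by -1.23 and -1.28 in the later steps and by -2.67 over the span, all 3 called. HMGB2, a chromatin protein of dividing cells, changed by -1.76 at birth, by -1.73 after 28 dpn and by -3.51 over the span, with a value of -0.01 from 1 to 28 dpn that was not called. RRM2, the inducible subunit of ribonucleotide reductase, changed by -1.92 at birth and by -2.49 over the span. LIN37, a subunit of the complex that represses or activates cell cycle genes, and the GTPase RAN were the 2 genes that rose at birth, by 0.98 and 0.47.

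The endothelial, connective tissue and erythroid marker lists had calls only in the direction of most called division genes in all 4 comparisons. The macrophage list did so save for 1 gene over the span, and other lists did not. Most genes of a list were called that way in every comparison only for the endothelial markers. The summed signal of the 8 endothelial markers had stage medians, in order of age, of 14977, 5657, 9442 and 4795. Its range was 12435 to 19458 at 94 dpc, 4057 to 7075 at 1 dpn, 8459 to 11595 at 28 dpn and 3889 to 5640 at 188 dpn. In the 4 comparisons 6 of the 8 were lower, 6 higher, 5 lower and 6 lower, PECAM1 and CDH5 among the brightest of them. VWF, of the same list, took another course, with a higher mean at each later stage, from 518 at 94 dpc to 775 at 188 dpn. The 5 macrophage markers measured, of 8 listed, had sums of 1505 to 1916 at 94 dpc, 798 to 1622 at 1 dpn, 1553 to 4229.5 at 28 dpn and 636 to 1172 at 188 dpn, with 1 lower, 3 higher and 3 lower between consecutive stages. Over the span 3 were lower and 1 higher. They did not all move together: MARCO had means of 17.5, 25.2, 104 and 113 in order of age, and CD163 of 322, 426, 365 and 234.

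The connective tissue markers, 7 of 9 measured, had sums of 41644 to 61242 at 94 dpc, 10561 to 29607 at 1 dpn, 13651 to 32819 at 28 dpn and 9976 to 16026 at 188 dpn. Of the 7, 6 were lower at birth, 1 higher at 28 dpn, 2 lower after 28 dpn and 6 lower over the span. Of the satellite cell and myoblast list 4 of 8 were measured, with sums of 20011 to 31525 at 94 dpc, 17857 to 40338 at 1 dpn, 20688 to 32418 at 28 dpn and 35623 to 41245 at 188 dpn. Over the span 2 of the 4 were lower and 2 higher. The myogenic factors MYF5 and MYOD1 had lower means at each later stage, from 609 to 44.6 and from 1875 to 414. MYF6, a factor of mature fibres, had means of 1452, 1072, 1061 and 5778 in order of age, and DES, the muscle filament desmin that makes up most of the sum, of 20067, 25326, 24097 and 31807. Erythroid markers, 6 of 11 measured, had median sums of 1456, 859, 1451 and 631. In the 4 comparisons in order, 1 of them was lower, 1 higher, 2 lower and 3 lower. Lymphocyte markers, 6 of 9 measured, had a median percentile between 8.77 and 45.8 in all samples, and 2 of them were higher at birth. The part of these cells in the changes of the division genes was not tested.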

How the data were processed

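Expression was measured in 23 samples on a porcine Affymetrix array from 0.5 ug of total RNA, per the labels' protocols. The deposited values are linear intensities, 1 signal for each of 24123 probe sets. The submitters' processing notes name the software GCOS 1.1.1 and no role for it. How probes were summarised, background-corrected and called as detected is not given in the sources used here. The 2% trimmed mean lay at 500.1 to 500.2 on every array, so the values were taken as scaled to 1 target. Such scaling moves all probe sets of an array where many transcripts shift. The number of arrays limits the precision.

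The 124 control probe sets were left out, and log2(signal + 16) of the other 23999 was fitted with limma 3.58.1 (R 4.3.3), 1 mean a stage over all samples. P-values are two-sided, were adjusted by Benjamini-Hochberg across the probe sets fitted, and were read at 0.05. A table of platform annotations gave 10069 probe sets a single symbol, for 6765 genes; 23 of the 77 genes had several probe sets, and for 2 of them the mean of the linear signal would choose another. The fit was tested on simulated data.

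The genes, their grouping by role, the marker and pathway lists and the rule for named genes were chosen with earlier results of these data known. That rule took up to 3 called genes of a role with the largest change in each comparison, a list of core regulators where measured, and genes called against the direction of their role. Other genes named, including all those of the pathway list, were chosen after their values were seen. MCM6, MCM7, CDK1, CDK4, CDK6, CCND1, CCND3, CCNE1 and CDKN1C were not analysed here.

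Alternatives were quantile normalization, centring arrays on their median, leaving out dimmer probe sets, a pseudocount of 1 or 64, a fit restricted to the stages at hand, a trended and robust prior, array weights, the mean of a gene's probe sets, leaving out each sample, and the GAPDH ratio as a covariate or as a reason to leave out 3 samples. A search of promoters was not made, since no sequence was at hand. Replicate numbers follow the order of the samples and only name them. Plots were made in Python 3.11.15 with matplotlib 3.10.9.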

Additional observations from a re-analysis of the deposited data

Results flagged for a closer look

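In 14 of 156 sets of 5 or 6 samples (39 named genes at 4 stages), the highest or lowest sample stood apart from the rest by Dixon's gap. For independent normal values chance alone gives this in about 1 of 20 sets. The gaps were taken on linear signals and the genes share arrays, so that rate may not hold here. At 1 dpn, replicate 1 was the highest for CCNA2 (78.5, next 27.5), CENPF (213, next 69.3), CKS2 (599, next 285) and UBE2C (392, next 111), and the lowest for KIF5B (310, next 662). Its median over the 36 division genes was the highest of its stage (7.33).

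Also at 1 dpn, replicate 2, a sample of low GAPDH ratio, was the highest for CDKN1B (2240.0, next 835) and for CDC37L1 (2260.0, next 1050.0). At 94 dpc, replicate 4 was the lowest for CKS2 (1230.0, next 1590.0) and replicate 1 the highest for MCM4 (51.8, next 24.4). At 28 dpn, replicate 1 was the highest for CENPF (185, next 77.7) and PLK2 (322, next 255), and replicate 2 the lowest for KIF5B (140, next 550.0). At 188 dpn, replicate 4 was the lowest for CCNB1 (14.3, next 43.2) and replicate 5 the highest for CCNB2 (27.5, next 11.6).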

How the results depend on the processing

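Of 17 counts and medians over the 77 or the 42 division genes, 162 of 186 values under other settings and 205 of 207 with 1 sample left out stayed within 1.5 times, or for medians within their spread. At birth, leaving out dimmer probe sets (53 genes left) gave 17 lower and 12 division genes lower. There, 8 were higher with arrays centred and 7 without the samples of low GAPDH ratio or with the ratio as a covariate. The median at birth was -0.27 under quantile normalization, -0.14 with arrays centred, -0.56 without those samples and -0.59 with the covariate. From 1 to 28 dpn, 3 were lower without those samples and 3 with the covariate, and 3 to 7 with 1 sample left out.

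After 28 dpn, 3 genes were higher; this was 5 with quantile normalization, without dimmer probe sets or with the mean of probe sets, 6 with array weights, without those samples or with the covariate, 7 with a pseudocount of 64 and 8 with only these stages fitted. Over the span, 16 were higher with arrays centred and 16 division genes lower without dimmer probe sets. The median over the span was -0.40 (quantile), -0.35 (centred) and -0.50 (pseudocount 64). With 1 sample left out, division genes lower at birth numbered 20 to 24, higher at 28 dpn 11 to 15, lower after 28 dpn 11 to 15 and lower over the span 25 to 27.

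Of 112 changes of named genes, 22 lost their call in at least 1 other setting and 12 with 1 sample left out, and 9 gained one in each case. The 112 include changes that were not called to begin with, which cannot lose a call. The 1 change of direction was CDKN1A at birth under quantile normalization (-0.062), which was not called. The median of all probe sets at birth moved from -0.11 to 0.04 under quantile normalization and 0.17 with arrays centred. No paired analysis was possible because the labels give no shared replicate numbers. Where a mean signal was near the pseudocount, as for CCNA2, CCNB2 and MELK, background limits the size of a change.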
